A study of Mus musculus with 16 samples.

Results

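Wide succinyllysine regions without H3K4me3 or H3K27me3 were the regions of the deposited succinyllysine list that were wider than 1000 bp and shared no base with any region of the H3K4me3 or H3K27me3 list. They were chosen by those measured values, the width and the overlaps, and numbered 1037 of 10888 succinyllysine regions. They came from chromatin immunoprecipitation followed by sequencing (ChIP-seq) of immortalized mouse embryonic fibroblasts, with antibodies to succinyllysine, H3K4me3 or H3K27me3 or with no antibody (input). The experimental line was R26M2rtTA/+;TetOcre;Sdhcfl/fl, with both copies of Sdhc floxed, and the control line was R26M2rtTA/+;TetOcre;Sdhcfl/wt, with 1 floxed and 1 wild-type copy. Both lines carried the reverse tetracycline transactivator and a doxycycline-inducible Cre recombinase, both received doxycycline at 1 µg/mL, and both were sampled at day 16. Each line gave 2 samples per antibody and 2 of input, 16 samples in all. Whether a line is 1 clone, and whether the 2 samples came from separate cultures, is not given in the labels. Each antibody has 1 list of positions for its 4 samples, so Sdhc fl/fl and fl/wt cells cannot be compared here, and read depth is unknown.

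Lysine succinylation is the addition of a succinyl group, taken from succinyl-CoA, to the side chain of lysine, and it occurs on histones and on many other proteins. An antibody to succinyllysine does not name the protein that carries the group. Sdhc codes for a subunit that anchors succinate dehydrogenase in the mitochondrial membrane. This enzyme oxidises succinate in the tricarboxylic acid cycle. H3K4me3 marks the starts of active genes and of genes poised for transcription, and H3K27me3 marks chromatin held silent by Polycomb proteins. Regulatory DNA away from gene starts, such as enhancers, usually carries little H3K4me3. Which histone marks of enhancers these regions carry was not measured.

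The wide regions without either histone mark are set here against 2 other classes of the same list. The first is the 949 regions over 1000 bp that touched H3K4me3, 48 of which also touched H3K27me3. The second is the 7494 regions of at most 1000 bp that touched neither mark. The fibroblast label was checked through H3K4me3 at gene ends, since the files hold no expression values. An H3K4me3 region lay within 1000 bp of an end of 7 of 8 fibroblast marker genes (all but Thy1), 3 of 5 epithelial, 1 of 5 haematopoietic, 1 of 4 endothelial and 2 of 4 neuronal ones, against 55.6% of all 21887 protein-coding genes.

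Few of these regions lay over an annotated gene start, and the sequences at 4 of those starts show what they look like. They are given because they lie wholly inside 4 of the widest regions. Each is the RefSeq window of 300 bases (GRCm38.p6, 250 before to 50 after the start), printed 5′ to 3′ on the gene's strand with every CpG in capitals. Gm41638 (chr17:83960888-83961187, minus strand), Gm32513 (chr2:167789118-167789417, plus strand) and Gm32316 (chr2:30655884-30656183, minus strand) are long noncoding RNA genes. Syt8 (chr7:142434600-142434899, plus strand) encodes a synaptotagmin, a family of membrane trafficking proteins.
Gm41638: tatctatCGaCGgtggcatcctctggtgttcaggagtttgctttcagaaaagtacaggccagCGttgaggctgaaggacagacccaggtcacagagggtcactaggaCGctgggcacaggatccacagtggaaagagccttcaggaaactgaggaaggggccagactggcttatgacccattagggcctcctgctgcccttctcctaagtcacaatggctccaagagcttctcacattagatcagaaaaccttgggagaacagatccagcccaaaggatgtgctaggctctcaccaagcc
Gm32513: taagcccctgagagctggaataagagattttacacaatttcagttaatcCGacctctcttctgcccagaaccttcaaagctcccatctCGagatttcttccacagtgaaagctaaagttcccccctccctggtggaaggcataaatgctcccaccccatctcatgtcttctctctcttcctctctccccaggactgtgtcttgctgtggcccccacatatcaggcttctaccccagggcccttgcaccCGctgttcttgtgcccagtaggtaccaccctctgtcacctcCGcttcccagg
Gm32316: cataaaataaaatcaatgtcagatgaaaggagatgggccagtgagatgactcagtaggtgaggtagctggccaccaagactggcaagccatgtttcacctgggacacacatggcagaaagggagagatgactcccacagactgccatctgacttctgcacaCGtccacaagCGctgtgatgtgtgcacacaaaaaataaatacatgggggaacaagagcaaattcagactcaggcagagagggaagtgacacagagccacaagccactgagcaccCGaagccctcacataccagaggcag
Syt8: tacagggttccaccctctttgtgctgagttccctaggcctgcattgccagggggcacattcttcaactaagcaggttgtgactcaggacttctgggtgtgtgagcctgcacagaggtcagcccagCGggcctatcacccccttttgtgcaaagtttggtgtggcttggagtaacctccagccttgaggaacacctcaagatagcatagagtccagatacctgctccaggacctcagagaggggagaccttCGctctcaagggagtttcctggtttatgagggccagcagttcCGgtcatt
The windows of Gm41638 and Gm32513 hold 4 CpG each, and those of Gm32316 and Syt8 hold 3 each. Their observed over expected CpG ratios were 0.188, 0.214, 0.158 and 0.134 in the order printed, where a ratio near 1 would mean that CpG is as frequent as the C and G content allows.

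A pair of starts inside the widest protein-coding examples of the H3K4me3-touching class are given for contrast. Nfix (chr8:84780033-84780332, minus strand), which encodes a nuclear factor I transcription factor, lies in a 15100 bp region. Ugt1a1 (chr1:88211709-88212008, plus strand), which encodes a UDP-glucuronosyltransferase, lies in a 14000 bp region.
Nfix: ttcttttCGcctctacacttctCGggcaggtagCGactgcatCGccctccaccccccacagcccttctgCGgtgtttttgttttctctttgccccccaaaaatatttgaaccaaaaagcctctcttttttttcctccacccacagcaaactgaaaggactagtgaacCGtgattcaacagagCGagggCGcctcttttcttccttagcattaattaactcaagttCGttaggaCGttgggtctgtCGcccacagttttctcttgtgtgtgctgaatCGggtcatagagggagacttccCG
Ugt1a1: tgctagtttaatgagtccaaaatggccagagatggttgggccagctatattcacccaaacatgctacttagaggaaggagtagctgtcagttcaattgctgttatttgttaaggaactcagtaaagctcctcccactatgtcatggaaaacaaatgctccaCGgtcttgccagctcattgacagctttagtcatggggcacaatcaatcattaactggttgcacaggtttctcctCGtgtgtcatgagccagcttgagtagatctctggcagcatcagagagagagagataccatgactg
The Nfix window holds 13 CpG, a ratio of 0.739, while the Ugt1a1 window holds 2, a ratio of 0.13. Starts that are poor in CpG thus occur in the H3K4me3-touching class too.

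Over all starts the same values were counted with 1 window per gene. Windows touched by a wide region without either mark belonged to 82 genes, 49 (59.8%) of them for long noncoding RNAs and 33 (40.2%) protein-coding. Their median CpG ratio was 0.215, and 8 of 82 (9.76%) had a ratio over 0.6. Of the 365 windows touched by a wide region on H3K4me3, 63.8% were over 0.6, with a median of 0.725. The 16632 windows touched by no H3K4me3 region at all had a median ratio of 0.212, with 7.91% over 0.6. The low CpG content was therefore near that of any start without H3K4me3. The median GC content was 53.7% in the 82 windows and 47.7% in those 16632. No test was made of these values, because absence of H3K4me3 chose the regions.

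Short motifs were counted on both strands of the same windows. TGANTCA, the AP-1 motif, was in 10 of 82 windows (12.2%, 95% exact CI 6.01 to 21.3), against 10.4% of windows without H3K4me3 and 7.92% of all windows. GGAATG, the TEAD motif, was in 24 of 82 (29.3%, CI 19.7 to 40.4), against 16.9% without H3K4me3 and 14.7% of all. GGGCGG, the SP1 motif, was in 15 of 82 (18.3%), against 13.8% without H3K4me3, 63.6% of windows in wide regions on H3K4me3 and 35.9% of all. TATAAA was in 9 of 82, against 19.3% of windows without H3K4me3. TGACGTCA, the CRE motif, was in 4 (4.88%), against 0.77% without H3K4me3 and 4.38% in wide regions on H3K4me3. TGTGGT, the RUNX motif, was in 20 (24.4%), against 20.8% without H3K4me3, and CCAAT was in 24 (29.3%), against 37.6%. A match describes the letters in these windows and not a bound site.

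The widths set the choice of regions and are given as a description. The 1037 regions covered 2.41 Mb, 32.2% of all bases in the succinyllysine list, with a median width of 1900 bp (quartiles 1400 and 2700 bp). The widest was 18200 bp. The 949 wide regions on H3K4me3 covered 2.13 Mb with a median of 1700 bp, and the widest of those was 27800 bp. Over 5000 bp there were 50 regions without either mark and 43 on H3K4me3. At the edge of the width rule, 83 regions were 1100 bp wide, just inside, and 91 regions of 1000 bp without either mark were just outside. At the edge of the H3K4me3 rule, 27 regions directly adjoined an H3K4me3 region without sharing a base, just inside, and 5 wide regions shared exactly 100 bp with one and none with H3K27me3, just outside.

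**Figure D1:**
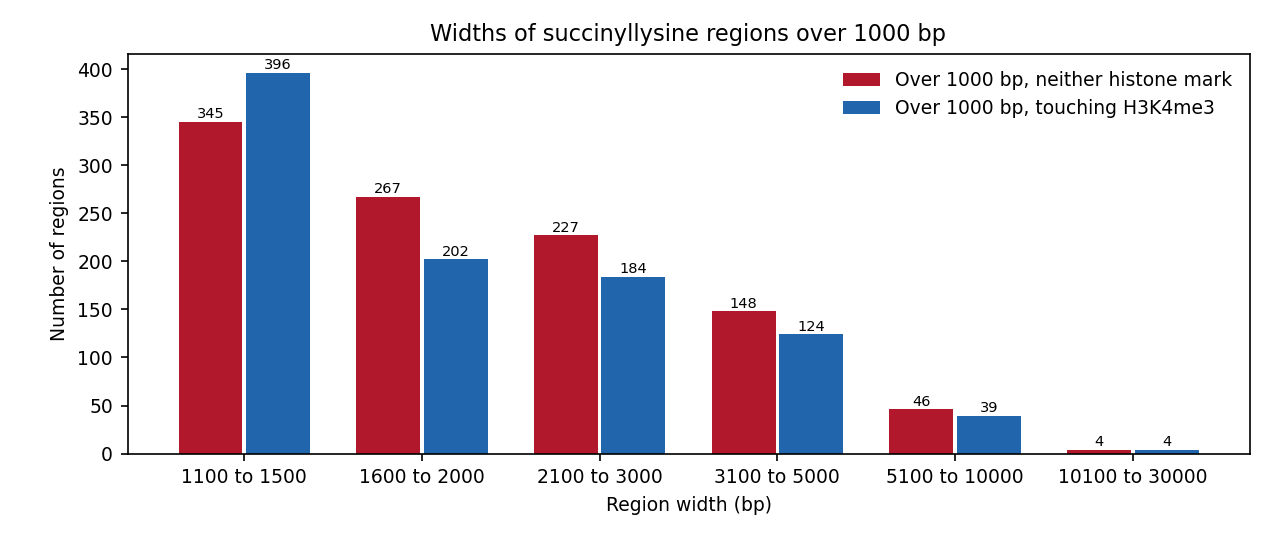
Number of succinyllysine regions over 1000 bp (vertical axis) by width in bp (horizontal axis), with regions without either histone mark beside those that touched H3K4me3. From 1100 to 1500 bp there are 345 without either mark and 396 on H3K4me3, and in every wider class up to 10000 bp there are more without.

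The share of succinyllysine regions that fell in this class differed between chromosomes, with 1037 of 10888 over all. Chromosome 2 held most, 114, but these were 10.1% of its 1134 succinyllysine regions. Chromosome 11 held 94. The 94 were 18.1% of the 518 succinyllysine regions of chromosome 11, and on chromosome 19 the share was 17.5% of 206. Chromosome 16 held 18 (5.75% of 313) and the X chromosome 2 of 66 (3.03%).

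Most of the regions lay away from the ends of genes. By midpoint, 561 of 1037 (54.1%, 95% exact CI 51.0 to 57.2) were intergenic, 429 (41.4%, CI 38.4 to 44.4) lay in the body of a protein-coding gene and 47 (4.53%, CI 3.35 to 5.98) lay within 1000 bp of a gene end. Of the 561 intergenic ones, 161 touched a long noncoding RNA gene. An annotated start was touched by 60 of the 1006 regions outside chromosome 18. Of the wide regions on H3K4me3, 293 of 949 (30.9%) were intergenic, 346 (36.5%) in gene bodies and 310 (32.7%) at gene ends. H3K4me3 separated these 2 classes and itself lies at gene ends, so no test of that difference is given. The gene-end share of the wide regions without either mark was 2.12% with a window of 500 bp, 9.26% with 2500 bp, 8.97% when any base counted in place of the midpoint and 11.4% with all RefSeq genes. Among wide regions on H3K4me3 it ran between 10.2% and 54.1% over the same 4 settings, and it was the higher share in each. The gene body share was higher without H3K4me3 by 4.91 percentage points, but the difference was -7.21 points when gene ends were drawn at 500 bp and -6.05 points among regions over 2000 bp.

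Against narrower regions the positions were tested, since gene position itself was used in neither choice. Absence of H3K4me3 chose both classes, however, and so bears on these shares. It left out 949 of 1993 succinyllysine regions over 1000 bp, 310 of them at gene ends. The shares therefore hold only for the regions left after that choice. Gene bodies held 41.4% of the wide regions and 2000 of 7494 narrower ones (26.7%, odds ratio 1.94, Fisher's exact test, adjusted p = 3.21e-21). Gene ends held 4.53% of the wide and 143 (1.91%) of the narrower regions (odds ratio 2.44, Fisher's exact test, adjusted p = 1.71e-06). Intergenic positions held 54.1% of the wide and 71.4% of the narrower regions (odds ratio 0.472, Fisher's exact test, adjusted p = 1.02e-27). The wide regions were thus closer to genes, with a median of 19689 bp to the nearest end of a protein-coding gene (95% CI 17529 to 22001), against 120829 bp for the narrower ones. Adjustment of p was over 11 tests, after Benjamini and Hochberg. These include tests that are not reported because H3K4me3 or H3K27me3 chose the regions, and they affect the adjusted values. All tests and intervals here cover counting error only, because regions of 1 list are not replicates and neighbours are not independent.

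**Figure D2:**
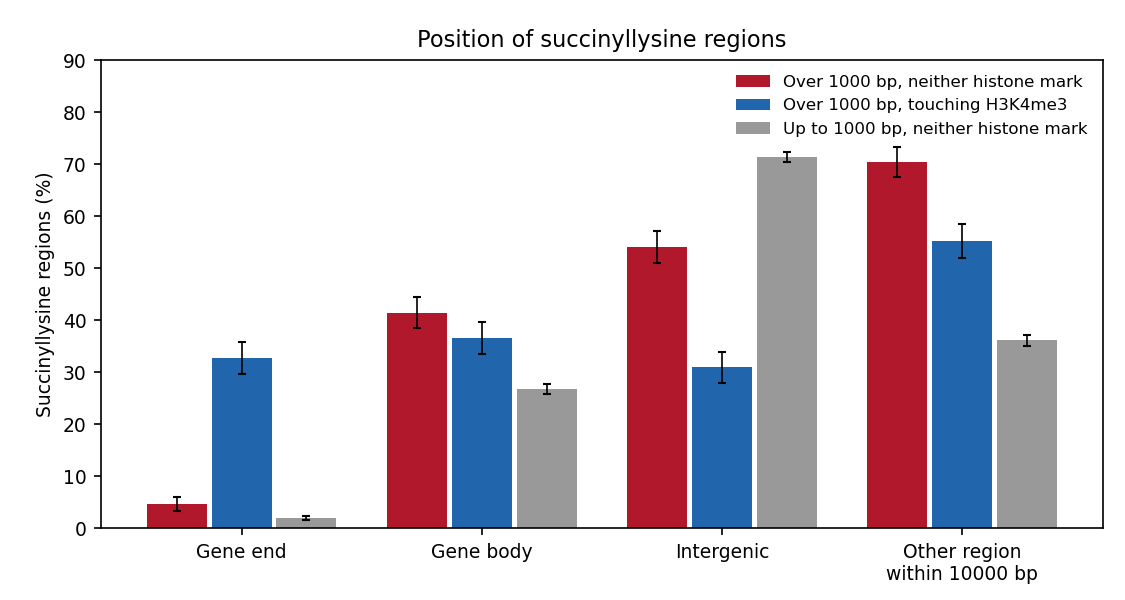
Share of succinyllysine regions in percent (vertical axis) at gene ends, in gene bodies, in intergenic positions and with another succinyllysine region within 10000 bp, for wide regions without either mark, wide regions on H3K4me3 and narrower regions without either mark; error bars are exact 95% intervals. Gene ends hold 4.53%, 32.7% and 1.91% in that order, and neighbours within 10000 bp occur for 70.4%, 55.2% and 36.1%.

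Most wide regions in gene bodies lay in a gene with H3K4me3 at one of its ends. This was so for 325 of 429 (75.8%, CI 71.4 to 79.7), against 681 of 2000 narrower gene-body regions (34.0%). Gene-body regions that themselves touched H3K4me3 had a higher share, 288 of 346 (83.2%, CI 78.9 to 87.0). No test is given of these shares, because H3K4me3 chose the regions and 1 gene can hold several of them. Counted by gene, H3K4me3 lay at an end of 70.6% of the 340 genes with a wide region in the gene or within 1000 bp. It did so for 55.3% of the other protein-coding genes, and for 65.9% of those whose length lay between the quartiles of the 340. Within genes of known strand, 60 of 332 wide regions lay in the 1st of 4 equal parts of the gene, counted from its start, and 91, 90 and 91 in the later ones. That is 18.1% in the 1st part (CI 14.1 to 22.6), against 23.2% of 1575 narrower regions (CI 21.1 to 25.3). Counted in bp, 43 of 332 (13.0%) lay within 10000 bp of the start, against 108 of 1575 narrower ones (6.86%), so the order of the 2 classes depended on the measure.

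The median distance to H3K4me3 was 21800 bp (95% CI 19200 to 24400) for wide regions, against 21100 bp (20100 to 22200) for narrower ones, so the intervals overlapped. An H3K4me3 region lay within 5000 bp of 256 wide regions (24.7%, CI 22.1 to 27.4) and 1567 narrower ones (20.9%). No test is given of distances to H3K4me3 or H3K27me3, because sharing no base with either list chose both classes. Of 1993 succinyllysine regions over 1000 bp, 949 touched H3K4me3 and 55 touched H3K27me3, and these were left out. With distances from the midpoint the shares within 5000 bp were 21.8% and 20.6%, and within 20000 bp they were 47.8% and 48.8%. The difference was wider with 1 region kept per run of neighbours, at 30.6% and 15.6%, and among regions over 2000 bp, at 28.5% and 21.0%. At the far end, 125 wide regions had no H3K4me3 region within 100 kb.

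H3K27me3 lay far from the wide regions. The median distance was 192300 bp (CI 178000 to 212600), against 16000 bp for narrower regions. Only 7 of 1037 wide regions (0.675%, CI 0.272 to 1.39) had an H3K27me3 region within 5000 bp, against 2080 of 7494 narrower ones (27.8%). This is a description, since absence of H3K27me3 at the region chose both classes. The closest pair was 600 bp apart. After neighbours within 1000 bp were merged the shares were 4.85% of 825 wide and 27.2% of narrower regions. Wide regions on H3K4me3 also lay far from H3K27me3, with a median of 132200 bp.

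**Figure D3:**
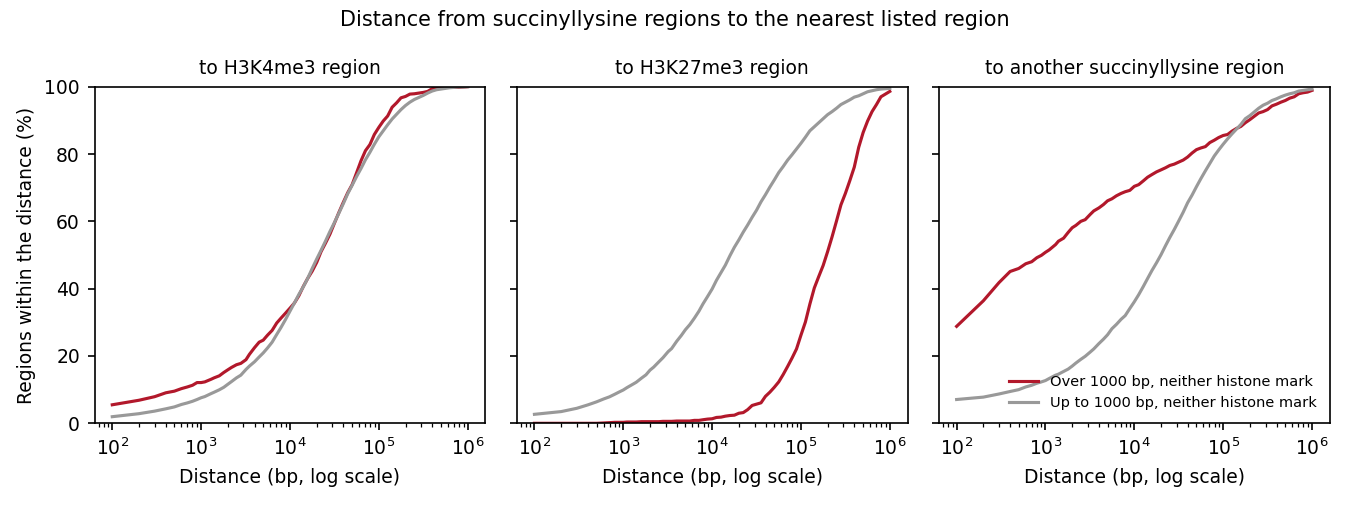
Cumulative share of regions in percent (vertical axis) within a given distance in bp (horizontal log axis) of the nearest H3K4me3, H3K27me3 or other succinyllysine region, for wide and narrower regions without either mark. The curves for H3K4me3 run close together with medians of 21800 and 21100 bp, while those for H3K27me3 lie apart, with medians of 192300 and 16000 bp.

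The wide regions stood close to other succinyllysine regions. Another one lay within 10000 bp of 730 of 1037 (70.4%, CI 67.5 to 73.2), against 524 of 949 wide regions on H3K4me3 (55.2%, odds ratio 1.93, Fisher's exact test, adjusted p = 3.56e-12) and 2703 of 7494 narrower ones (36.1%, odds ratio 4.21, Fisher's exact test, adjusted p = 6.96e-97). The median distance to the next region was 1000 bp, against 4700 bp on H3K4me3 and 20000 bp for narrower regions. In 189 cases the neighbour adjoined directly, so that the list gives 1 unbroken stretch as 2 or more regions, and merging such neighbours left 957 regions. With neighbours within 1000 bp merged, 42.4% of the wide regions had another within 10000 bp, against 27.3% on H3K4me3. The difference from narrower regions was then 15.4 percentage points in place of 34.3. When neighbours within 50000 bp counted, the shares were 81.3% of wide and 70.3% of narrower regions. Both differences passed the test in all 8 alternatives run.

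Joined at gaps of at most 50000 bp, the 1037 regions formed 556 runs, of which 351 were single regions. The 33 runs of 5 or more held 256 regions. The longest lay on chromosome 17 (83899701 to 84147100), where 22 regions of 1200 to 14300 bp covered 81100 bp, 32.8% of the span. It held 5 other succinyllysine regions and no protein-coding gene, H3K4me3 region or H3K27me3 region. Its neighbours are Haao, an enzyme of the kynurenine pathway, 50719 bp away, and Zfp36l2, an RNA-binding protein that promotes mRNA decay, 36823 bp away. The 14300 bp region at 83950801 to 83965100 is the second widest of all 1037. It touches the long noncoding RNA genes Gm41638, whose start is printed above, Gm35229 and Gm35457.

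On chromosome 2 (167705001 to 167864000), 18 regions covered 59400 bp, 37.4% of the span, between Cebpb and Ptpn1. Cebpb encodes a basic leucine zipper transcription factor of fat and immune cells, and Ptpn1 a tyrosine phosphatase. Cebpb is 14568 bp from the run and carried a 5000 bp H3K4me3 region, and Ptpn1 is 66749 bp from it. The run contains the widest region of the whole list, 27800 bp (167755101 to 167782900), which touched a 1500 bp H3K4me3 region and so is not one of the 1037. Its neighbours of 9900 bp (167783401 to 167793300) and 10700 bp (167794501 to 167805200) are, and the first of them covers the printed start of Gm32513.

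The next 5 runs held 12 to 15 regions each. At Rbks, ribokinase, and Mrpl33, a mitochondrial ribosomal protein, 15 regions covered 48.6% of 82500 bp on chromosome 5 (31564001 to 31646500). At Cstad, 14 covered 32.3% of 151000 bp on chromosome 2 (30591001 to 30742000), including the 9400 bp region over the printed start of Gm32316. At Tubd1, a tubulin, and Vmp1, an autophagy protein of the endoplasmic reticulum, 13 covered 46.4% of 85600 bp on chromosome 11 (86568701 to 86654300). At Lrrc32, which binds latent TGF-beta, 12 covered 26.3% of 80600 bp on chromosome 7 (98482101 to 98562700). A run at chemokine genes on chromosome 5 (90668601 to 90876700), including Cxcl5 and Pf4, also had 12, which covered 9.85% of 208100 bp. No H3K27me3 region lay in any of these 7 runs, and H3K4me3 regions numbered 0 to 4 per run.

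The widest single region, 18200 bp, lay in Lsp1 on chromosome 7 (142469201 to 142487400). Lsp1 encodes an actin-binding protein best known from leukocytes. A 10000 bp region (142454701 to 142464700) reached into the same gene, an 8900 bp region (142428401 to 142437300) covered the start of Syt8, and 5800 bp and 1800 bp regions lay at Tnni2, fast skeletal troponin I. Together 8 regions covered 48700 bp of a span of 103700 bp. No H3K4me3 or H3K27me3 region lay in that span, and the H3K4me3 region nearest to the 18200 bp region was 45300 bp away.

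**Figure D4:**
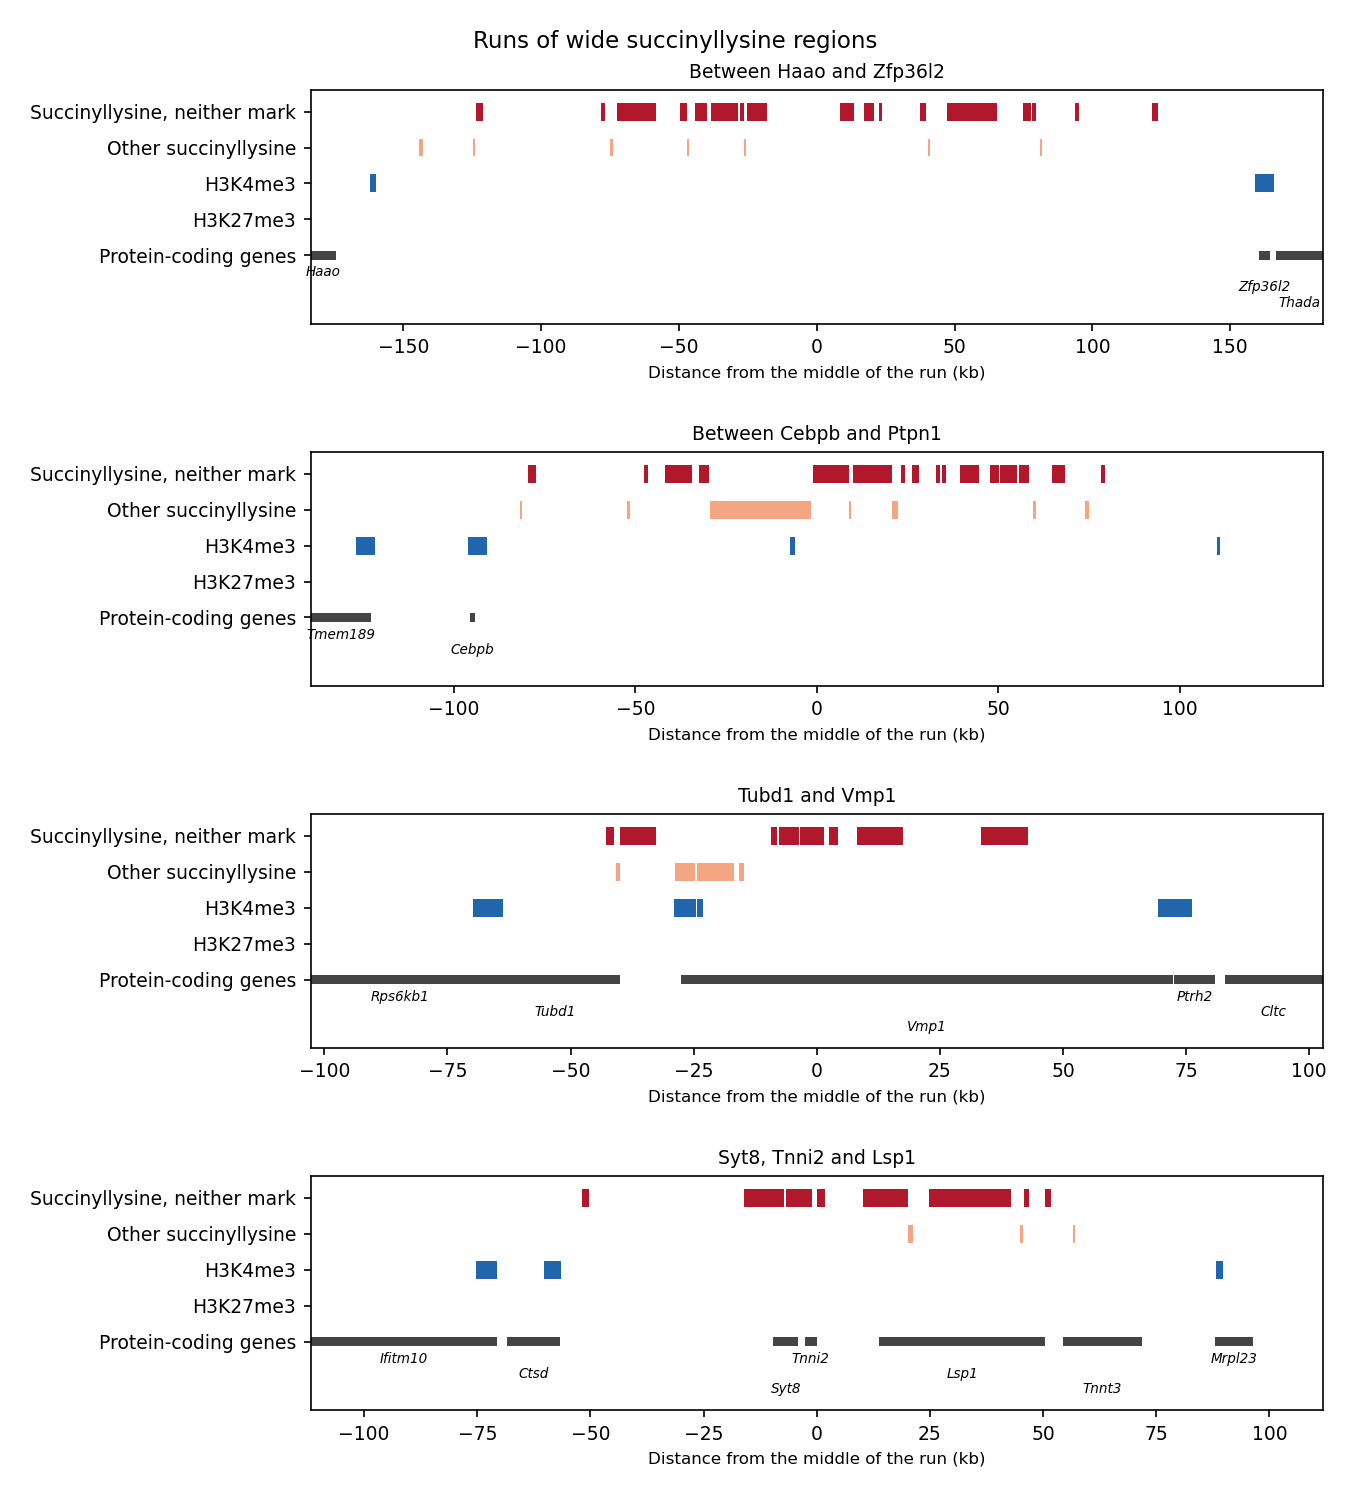
Maps of runs of wide succinyllysine regions, with distance from the middle of each run in kb (horizontal axis) and rows for the wide regions without either mark, other succinyllysine regions, H3K4me3, H3K27me3 and genes. Each map also shows the flanks of its run. In the chromosome 17 run, 22 wide regions spread over 247400 bp, with H3K4me3 and protein-coding genes only in the flanks, and the H3K27me3 rows of all 4 maps are empty.

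Protein-coding genes with at least 1 wide region within the gene or 1000 bp of it numbered 340 of 21887 (1.55%), and 98 (0.448%) had one at a gene end. Of the 340, 240 carried H3K4me3 at an end (70.6%, CI 65.4 to 75.4) and 10 carried H3K27me3 there (2.94%, CI 1.42 to 5.34), against 55.3% and 13.7% of the other genes. The 340 genes were longer, with a median of 58435 bp against 16906 bp, and longer genes have more room for a region. Among the 7982 other genes whose length lay between the quartiles of the 340, 65.9% (CI 64.9 to 67.0) carried H3K4me3 at an end, which lies within the interval of the 340. A single region was present in 245 of them.

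Vmp1 had most, 10 regions of 1200 to 9400 bp, all inside the gene and 13900 to 36100 bp from the nearest H3K4me3 region. Dnm3, a dynamin of membrane scission, had 7 regions of 1300 to 3300 bp. It is 495872 bp long and also held 42 H3K27me3 regions, and the smallest distance from one of its wide regions to H3K27me3 was 45900 bp. Aopep, an aminopeptidase, had 7 regions of 1200 to 3400 bp. Ak5, an adenylate kinase, had 7 of 1300 to 3200 bp. Slc14a2, a urea transporter of the kidney, had 7 of 1600 to 2400 bp with no H3K4me3 region at the gene.

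Foxn1, a transcription factor of thymic and hair follicle epithelium, had 6 regions in or within 1000 bp of a gene of 29207 bp, the widest 4900 bp. The region at 78387101 to 78388400 lay outside the gene. No H3K4me3 region lay at Foxn1, and the closest one to any of its wide regions was 18800 bp away. Morn1 and Cuedc1 had 6 each, with the widest at 6500 bp and 4000 bp. Rbks and Cryl1 had 5 each, with the widest at 6600 bp and 6100 bp. At Morn1 1 region directly adjoined an H3K4me3 region, whereas all 5 at Cryl1 were at least 78200 bp from one.

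All 16 lists of genes were then read for wide regions, and 28 of their 460 genes had one. Of 39 actin cytoskeleton and contractile genes 8 had one (20.5%, CI 9.3 to 36.5), against 1.55% of all protein-coding genes. Lmna, the nuclear lamins A and C, had a 6500 bp region that adjoined H3K4me3. Ahnak, a giant scaffold protein, had 3 regions of up to 3800 bp, and Lpp, a focal adhesion protein, had 3 of up to 3200 bp, all more than 10 kb from H3K4me3. Filip1l had 2 of up to 3100 bp, which also lay inside the overlapping gene Cmss1. Myh9, Actn4 and Cald1 had 1 each, of 1200, 1200 and 1700 bp.

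Of 40 collagen and matrix genes 5 had a wide region (12.5%, CI 4.19 to 26.8). Col6a1, a collagen VI chain, had a 7100 bp region (chromosome 10, 76726201 to 76733300) that began 157 bp upstream of the annotated start and directly adjoined H3K4me3. Fbln2, a basement membrane glycoprotein, had 8200 bp upstream, 300 bp from H3K4me3, and 1900 bp inside the gene. Col6a2 had 4500 bp upstream, 100 bp from H3K4me3. Col1a1 had 1500 bp inside the gene, 5100 bp from H3K4me3.

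Of 25 fibroblast surface and identity genes 4 had one (16.0%, CI 4.54 to 36.1). S100a6, a calcium-binding protein, had 4400 bp upstream, 100 bp from H3K4me3. The midpoint of that region lay inside the neighbouring gene S100a5, and the region covered an annotated start of S100a5. Eng, a TGF-beta coreceptor, had 1700 bp in the gene, Fgfr1, a fibroblast growth factor receptor, 1600 bp adjoining H3K4me3, and Ly6a 1500 bp. Of 33 mesenchymal transcription factors 3 had one (9.09%, CI 1.92 to 24.3). Nfix had 4 of up to 2600 bp, Runx1 had 3600 bp and 1800 bp, and Foxp1 had 1600 bp, all inside the genes. Among 32 immediate-early and growth-response genes 2 had one (6.25%, CI 0.766 to 20.8), an interval that includes the 1.55% of all protein-coding genes. These were Btg2, an antiproliferative factor, with 3800 bp and Klf2, a Krüppel-like transcription factor, with 1400 bp. Each region was 100 bp from H3K4me3 and on the upstream side of its gene.

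Some wide regions at the list genes lay beside H3K4me3 and others well away from it. In 11 of 28 genes (39.3%) a wide region lay within 500 bp of H3K4me3, against 66 of all 340 genes with one (19.4%). Counted by region, which is another unit than the gene, 99 of the 1037 did so (9.55%). The regions at Ahnak, Lpp and Runx1 were at least 13200 bp from H3K4me3 and had their midpoints inside the gene.

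Lists for other cell types also held some. Tnni2 and Mb, the muscle oxygen carrier, were 2 of 24 muscle genes (8.33%), and Camk2a, a neuronal kinase, was 1 of 24 neuronal genes (4.17%, CI 0.105 to 21.1) with 3 regions of 1200 to 1600 bp. Cdh1, E-cadherin, was 1 of 20 epithelial genes (5.0%, CI 0.127 to 24.9). These intervals overlap those of the fibroblast lists. Ltbp1, which binds latent TGF-beta, was 1 of 30 YAP/TEAD and TGF-beta response genes, and Ccnd3, a D-type cyclin, 1 of 20 cell cycle genes. None was present among 39 Hox, 30 succinate dehydrogenase and tricarboxylic acid cycle, 29 glycolysis and HIF target, 31 translation, 24 haematopoietic and endothelial and 20 hepatocyte genes. With lists of that size, shares of up to 9.03%, 11.6%, 11.9%, 11.2%, 14.2% and 16.8% are within the exact intervals in that order, so these zeros do not separate those lists from the 1.55% of all genes.

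**Figure D5:**
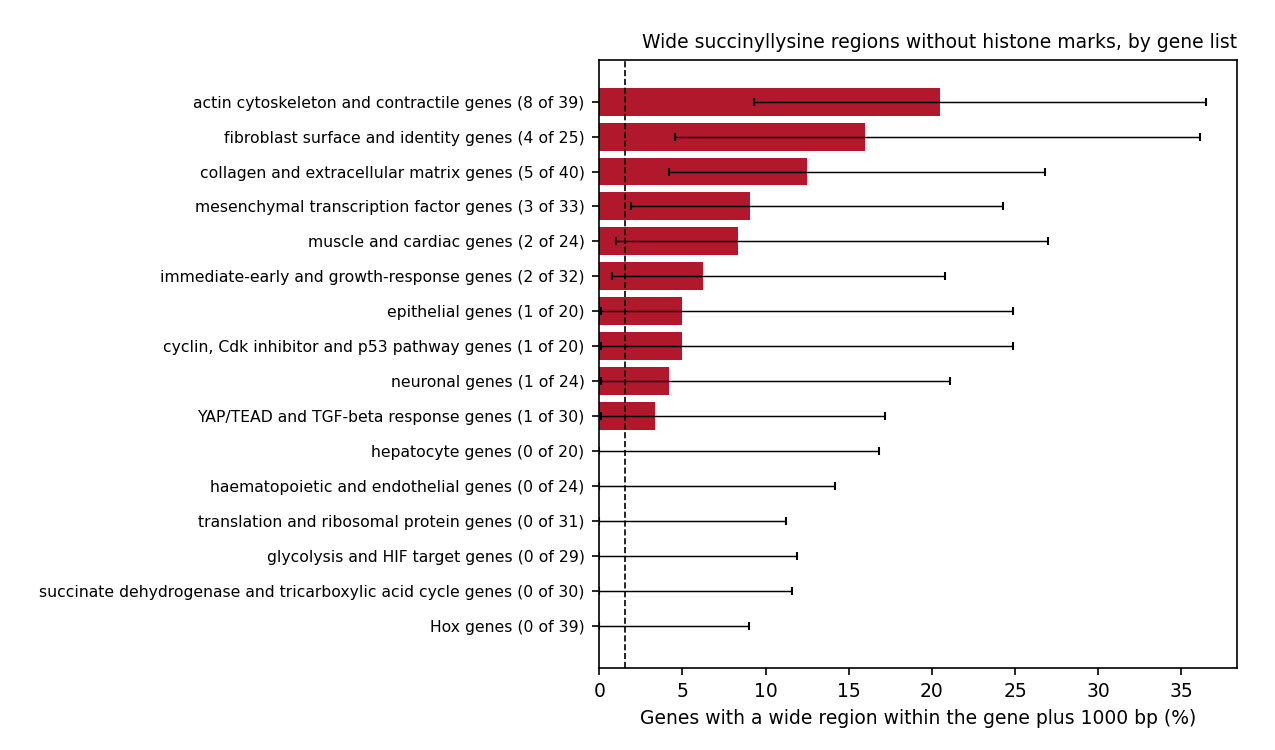
Share of genes in percent (horizontal axis) with a wide region without either mark within the gene plus 1000 bp, for each of 16 gene lists, with exact 95% intervals and the count of genes beside each name. Actin cytoskeleton and contractile genes are highest at 20.5%, and 6 lists are at 0.

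No wide region without either mark lay at a gene of succinate dehydrogenase. The nearest was 77554 bp from Sdha, 261470 bp from Sdhb, 274256 bp from Sdhc and 281451 bp from Sdhd. Sdhc did have 1 succinyllysine region of another class, and Sdha, Sdhb and Sdhd had none. All 4 genes carried an H3K4me3 region, of 5400, 3300, 4000 and 5200 bp at the widest in that order.

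No wide region without either mark touched any of 1005 microRNA hairpins, and 19 hairpins were within 10000 bp of one. Other succinyllysine regions were left out of these counts. Of these, 3 that are well known from fibroblasts are given, chosen after their distances were seen. Mir21a (chr11:86584067-86584158, minus strand), at the downstream end of Vmp1, lay 5166 bp from a 1600 bp region and itself inside H3K4me3. The Mir21a hairpin was covered by another succinyllysine region, 4000 bp wide (86582801 to 86586800), which touched H3K4me3 and so is not one of the 1037. Mir199a-1 lay 436 bp from a 2100 bp region and Mir199b 1759 bp from an 1800 bp region, both inside H3K4me3. Their mature RefSeq sequences, with the seed (bases 2 to 8) in capitals, show that the 2 miR-199 loci share a 3′ arm.
mmu-miR-21a-5p: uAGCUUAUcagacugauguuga
mmu-miR-199a-3p: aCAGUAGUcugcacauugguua
mmu-miR-199b-3p: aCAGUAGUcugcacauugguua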

How the data were processed

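Chromatin of 16 samples from 2 lines of immortalized mouse embryonic fibroblasts was studied, 4 for each of 3 antibodies and 4 of input. Per the labels' protocols it was fixed with formaldehyde, cut with micrococcal nuclease and sonicated. Alignment was to mm10 with Bowtie2 2.2.3, per the submitters' processing notes. The deposited lists hold start and end positions on a 100 bp grid, 1 list per antibody, with no count, height or score. How peaks were called, at what threshold, and whether samples were pooled is not stated in the sources used here.

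Positions were read as 1-based and inclusive. Genes, starts, promoter windows and hairpins came from RefSeq tables for GRCm38.p6 (the same coordinates as mm10). The promoter and hairpin tables used here hold nothing on chromosome 18. A region was at a gene end when its midpoint lay within 1000 bp of either end of a protein-coding gene, in a gene body when elsewhere in one, and otherwise intergenic. Counts of regions were compared by two-sided Fisher's exact tests, adjusted by the Benjamini-Hochberg method over 11 tests with a threshold of 0.05, and shares carry exact Clopper-Pearson 95% intervals (SciPy 1.17.1). Tests that read the histone mark lists used in the choice, or that compared positions with wide regions on H3K4me3, are not reported. Gene lists, motifs and widths were described without a test. The calculations were tested on simulated data.

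Named genes are those at the 10 widest regions, the 10 with most regions, up to 5 per gene list by width, the 4 succinate dehydrogenase genes and the genes of the 6 largest runs. The chemokine run, which ties with the last of those 6, the Lsp1 run, the genes beside the runs, the other list genes and the microRNAs were named after their values were seen. So were S100a5 and Cmss1. A few genes under this rule are counted but not reported here by name. The members and lists were chosen with earlier results of these data known. Alternatives changed the width minimum, the overlap, the gene window, the distances and the merging of neighbouring regions; the input samples were not used.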

Additional observations from a re-analysis of the deposited data

How the results depend on the processing

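Of 120 comparisons of a result with an alternative setting, 111 kept the direction and the side of the threshold, or stayed within 1.5 times the count. The 120 include comparisons for which no test is given above, because H3K4me3 or H3K27me3 chose the regions. For those the direction may be set by the choice, so the 111 are no measure of how firm the results are. The share in gene bodies, 4.91 percentage points higher in wide regions without either mark than in wide regions on H3K4me3, became -7.21 points with a window of 500 bp at gene ends, 0.605 points for widths over 1500 bp and -6.05 points for widths over 2000 bp. The share with H3K4me3 within 5000 bp, 3.78 points higher than in narrower regions, became -0.0475 points without regions that had H3K4me3 within 1000 bp, 1.68 points with neighbours within 1000 bp merged, -0.995 points for a distance of 20000 bp and 1.22 points from the midpoint. It became 7.47 points for widths over 2000 bp and 15.0 points with 1 region per run. The cause was not tested. The count of protein-coding genes with a wide region was 340, against 98 for gene ends alone and 534 for genes plus 10000 bp. Distances from the midpoint, merging of directly adjoining regions and keeping 1 region per run were chosen after seeing the data.

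No paired analysis was possible because each antibody has 1 list for its 4 samples and no result comes from single samples; leaving out a sample was not possible for the same reason. Read depth, peak height and the share of samples behind a region are unknown. Whether a wide region is marked in 1 line or in both is unknown. A region counted as free of H3K4me3 or H3K27me3 has none listed at the threshold the authors used. The GC content of the regions themselves was not analysed here, since no genome was used.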
